A study of Mus musculus with 8 samples.

Results

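The genes described here carry the names of gene families that build and move motile cilia, and were taken from poly(A) RNA-seq of the mouse hippocampus. They are every row of the deposited gene count table whose name starts with Dnah, Rsph, Cfap or Dnaaf followed by a digit. That gave 48 of 46078 rows, with 46 distinct names, since Dnah14 occupies 3 rows. There were 18 Dnah, 8 Rsph, 18 Cfap and 4 Dnaaf rows. One of the Dnah rows is Dnah2os, a transcript antisense to Dnah2 that the name rule also takes. A name does not show that a gene acts in a motile axoneme, and Cfap36 and some other Cfap genes have no axoneme role assigned here. The term axoneme genes below means the genes taken by this rule. The group was chosen by name, but with earlier measured values of these data in view, the counts per library in which ependymal markers lay high in WT replicate 1. Differences between single libraries are therefore given as description, with no test.

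The samples were hippocampi of 9-week-old C57BL/6J mice of 2 genotypes. Tg(Camk2a-cre)T29-1Stl mice were hemizygous for a transgene that expresses Cre recombinase under the Camk2a promoter, and are called T29-1 Cre below. Their reference was wild type (WT), and no floxed allele is named for either genotype. There were 4 libraries per genotype, and values listed by library follow replicates 1 to 4. The Camk2a promoter is known for activity in forebrain excitatory neurons, which carry no motile cilia. The labels do not say that each library is a separate animal, and the p-values below thus reflect only the scatter among these libraries, which may be technical.

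A motile cilium has an axoneme of doublet microtubules around a central pair. Dynein arms on the doublets make them slide, radial spokes carry signals from the central pair to the arms, and anchoring complexes and rulers set the spacing of both. Dyneins are assembled in the cytoplasm with the help of assembly factors before they enter the cilium. In the brain these structures are known from the multiciliated ependymal cells that line the ventricles, next to the hippocampus. The transcription factors Foxj1 and Rfx2 and Rfx3 are known to drive such genes, and hippocampal neurons bear a single primary cilium without dynein arms.

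Between 23358289 and 30882631 reads per library were assigned to genes, all on 1 sequencing lane. Of the 48 rows, 37 had enough counts to be tested, among 15996 genes in all. On the first principal component of all tested genes (26.1% of the variance), WT replicate 4 scored -33.4 and the other 7 libraries between -0.69 and 8.74. All 17 hippocampal neuron markers were measured, and their median deviation from the mean of the 8 libraries lay between -0.06 and 0.04 on the log2 scale. Among ependymal markers Foxj1, the master regulator of motile ciliogenesis, averaged 6.03 ± 1.37 CPM in T29-1 Cre and 6.15 ± 2.27 CPM in WT (SD, n = 4 each). In bulk tissue, fewer cells of a type and less RNA per cell cannot be told apart.

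The promoters of 5 members are shown because their levels fall into the 2 patterns that the results turn on. Dnah6, Dnah10 and Cfap43 varied widely between libraries, while Cfap20 and Dnah9 were nearly even. Each sequence runs 5′ to 3′ on the gene's strand, from 250 bases before to 50 bases after the RefSeq start in GRCm38.p6. Capitals mark every match, on either strand, to the motifs named after the sequences.
Dnah6, chr6:73221582-73221881 (minus strand): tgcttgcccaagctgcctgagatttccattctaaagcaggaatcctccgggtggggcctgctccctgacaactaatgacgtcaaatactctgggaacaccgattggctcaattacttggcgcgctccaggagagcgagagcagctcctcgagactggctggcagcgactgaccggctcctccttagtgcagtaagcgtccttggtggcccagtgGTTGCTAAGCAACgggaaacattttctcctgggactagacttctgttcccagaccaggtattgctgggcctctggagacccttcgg
Dnah10, chr5:124724835-124725134 (plus strand): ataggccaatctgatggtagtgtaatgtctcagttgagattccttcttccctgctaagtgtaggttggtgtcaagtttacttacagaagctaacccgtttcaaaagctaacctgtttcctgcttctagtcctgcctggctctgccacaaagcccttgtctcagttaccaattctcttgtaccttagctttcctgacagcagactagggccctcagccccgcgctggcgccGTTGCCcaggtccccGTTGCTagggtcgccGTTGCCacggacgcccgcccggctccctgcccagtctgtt
Cfap43, chr19:47837312-47837611 (minus strand): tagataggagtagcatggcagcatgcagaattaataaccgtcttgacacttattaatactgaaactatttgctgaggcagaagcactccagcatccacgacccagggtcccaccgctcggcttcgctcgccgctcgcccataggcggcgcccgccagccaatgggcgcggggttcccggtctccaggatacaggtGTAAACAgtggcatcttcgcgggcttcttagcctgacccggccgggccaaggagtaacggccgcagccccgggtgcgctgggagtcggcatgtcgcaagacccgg
Cfap20, chr8:95434820-95435119 (minus strand): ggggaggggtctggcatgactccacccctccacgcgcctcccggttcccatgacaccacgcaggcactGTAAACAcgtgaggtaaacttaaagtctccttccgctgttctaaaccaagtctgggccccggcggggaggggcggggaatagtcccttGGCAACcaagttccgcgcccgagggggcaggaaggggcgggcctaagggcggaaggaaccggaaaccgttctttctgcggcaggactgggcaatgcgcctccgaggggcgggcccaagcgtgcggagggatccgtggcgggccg
Dnah9, chr11:66168502-66168801 (minus strand): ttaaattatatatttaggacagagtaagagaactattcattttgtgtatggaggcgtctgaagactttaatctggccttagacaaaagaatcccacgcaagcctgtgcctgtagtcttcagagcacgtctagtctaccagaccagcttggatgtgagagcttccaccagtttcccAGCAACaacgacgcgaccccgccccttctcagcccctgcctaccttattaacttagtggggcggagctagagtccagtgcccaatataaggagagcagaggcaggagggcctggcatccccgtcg

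Motifs were searched in 2 rounds, 6 in all, in the 41 promoter windows found for 37 of the 46 names and in all 32851 windows of the same length. The first round held GTTGCC and the inverted repeat GTTNCCNNGGNAAC, forms related to the RFX box, and GTAAACA, a forkhead core. GTTGCC was in 13 member windows (31.7%), of 12 genes, and 12.5% of all windows. The 13 are not independent, since they include both overlapping windows of Cfap74 and the windows of the paralogs Dnah7a, Dnah7b and Dnah7c. GTTNCCNNGGNAAC was in 0 member windows and 0.451% of all windows, and GTAAACA was in 3 (7.32%) and 3.65%.

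The other 3 motifs were added only after the Dnah6 promoter had been read and the first inverted repeat had matched no member window, so they were drawn from the members' own sequence. Their shares describe these windows and support nothing. GTTGCT was in 22 member windows (53.7%) and 14.8% of all. GTTGCNNNGCAAC was in 5 member windows (12.2%) and 0.225% of all, and GTTGCNNNNGCAAC in 1 (2.44%) and 0.174%. The 5 windows belong to Dnah6, Rsph3b and the paralogs Dnah7a, Dnah7b and Dnah7c, and a spaced match can contain GTTGCT on either strand. In the printed windows, varying Dnah6 and Dnah10 and even Cfap20 and Dnah9 all hold at least 1 match to a GTTGC form, while varying Cfap43 holds none and has GTAAACA. The matched letters thus occur in promoters of both patterns.

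Levels spanned a wide range once scaled by length. In RPKM, the depth-scaled reads per kilobase of union exon, 12 members averaged at least 1. Cfap36, which in cells binds the small GTPase ARL3, was the highest at 29.9. Rsph9 followed at 6.79, Cfap97 at 6.496, Cfap20 at 5.995, Rsph3a at 3.78, and Rsph3b and Dnaaf5 both at 2.43. The rest of the 12 were Rsph1 at 1.62, Dnaaf2 at 1.54, Dnah9 at 1.397, Cfap69 at 1.36 and Cfap74 at 1.31 RPKM. Most of these highest genes are not the dynein motors.

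Below them came Rsph4a at 0.985, Dnah1 at 0.821, Rsph10b at 0.799, Cfap44 at 0.709, Cfap45 at 0.621, Dnah5 at 0.428 and Dnah2 at 0.422 RPKM. Cfap43 averaged 0.353, Cfap54 0.348, Cfap126 0.301, Cfap46 0.292, Dnaaf3 0.273, Cfap52 0.262 and Cfap70 0.261 RPKM. The lowest tested members were Dnah7b at 0.203, Cfap57 at 0.2003, Cfap58 at 0.191, Dnah6 at 0.131, Cfap61 at 0.129 and Dnah7a at 0.0997. Dnah10 had 0.07004, Dnah7c 0.0669, Dnah11 0.0549, Dnah12 0.0451 and Dnah8 0.0313 RPKM. Heavy chains thus took most of the bottom places, Dnah9 and Dnah1 being the highest of them.

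**Figure D1:**
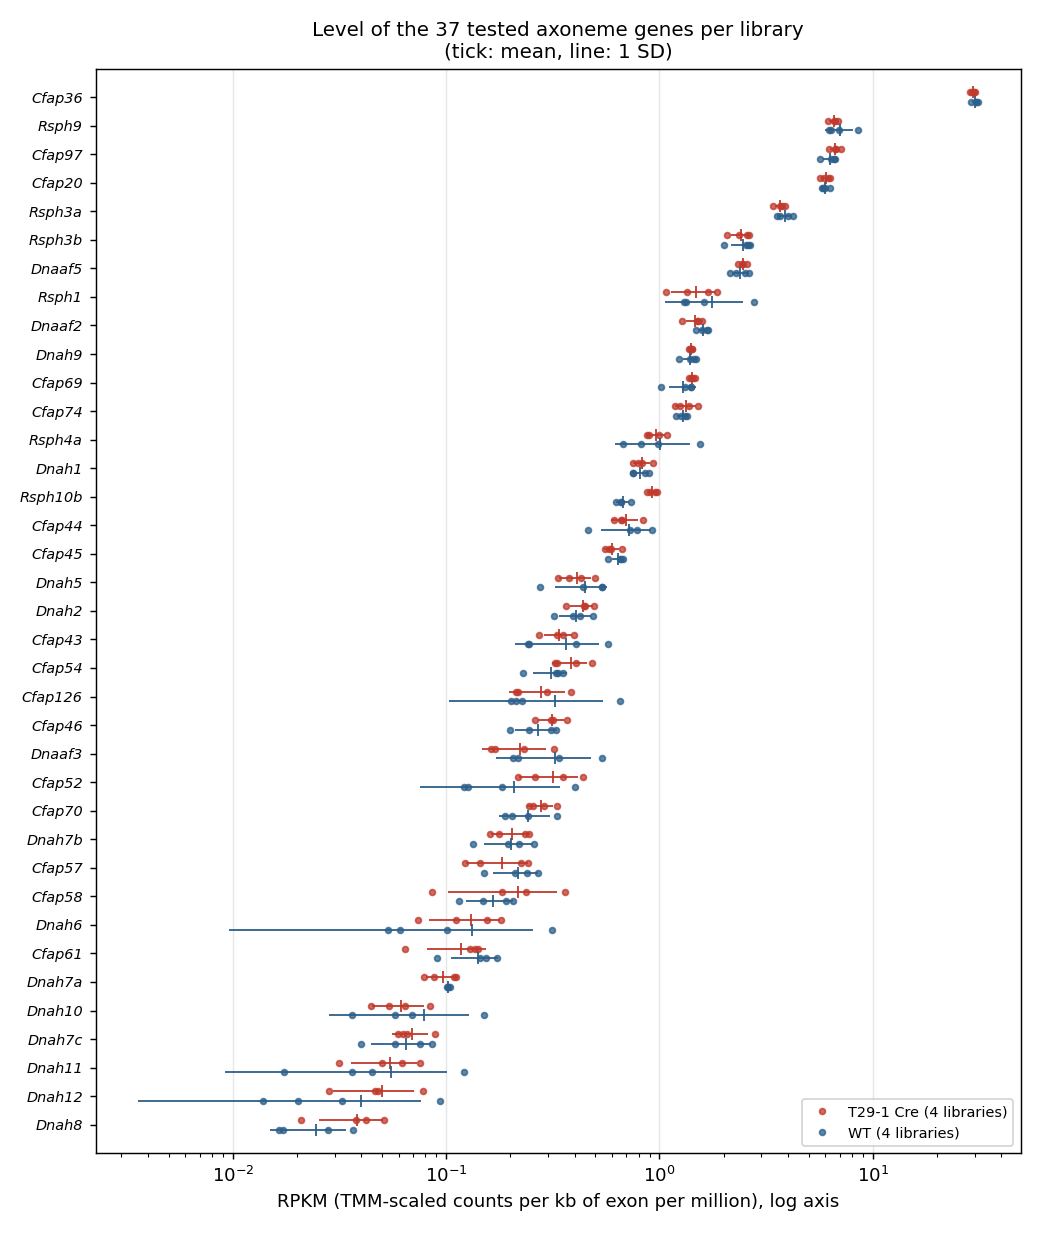
Level of each tested axoneme gene in depth-scaled reads per kilobase of exon (RPKM, log axis), with 1 point per library and the T29-1 Cre and WT libraries in separate colours. Cfap36 leads at a mean of 29.9 and Dnah8 is lowest at 0.0313, and the points of both genotypes lie over each other in nearly every row.

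Outer arm heavy chains, the motors that set beat frequency, were uneven among themselves. Dnah9 had 22.7, 21.9, 22.6 and 22.3 CPM in the T29-1 Cre libraries, against 23.7, 23.1, 22.2 and 19.8 CPM in the WT libraries. Those 8 values overlapped between genotypes and differed little. Dnah8, known in mouse from sperm flagella, had 1.13, 1.38, 1.01 and 0.562 CPM in the T29-1 Cre libraries, against 0.748, 0.443, 0.978 and 0.459 CPM in the WT libraries. Dnah8 was highest in T29-1 Cre replicate 2 and overlapped between genotypes. Dnah11, an outer arm chain singled out after its values were seen, had 0.453, 0.902, 0.722 and 1.09 CPM in the T29-1 Cre libraries, against 1.76, 0.524, 0.652 and 0.251 CPM in the WT libraries. Only WT replicate 1 was above the T29-1 Cre range for it. Dnah5, whose loss in mice causes hydrocephalus, averaged 6.403 ± 1.102 CPM in T29-1 Cre and 6.98 ± 1.92 CPM in WT (SD, n = 4 each).

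Among the inner arm chains, which shape the bend of the cilium, Dnah1 was the highest by RPKM, and Dnah6 had the largest coefficient of variation relative to trend of those tested. Dnah1 had 9.85, 12.2, 10.3 and 10.8 CPM in the T29-1 Cre libraries, against 11.6, 9.83, 11.2 and 9.81 CPM in the WT libraries. Its values overlapped between genotypes. Dnah6 had 0.981, 2.06, 1.48 and 2.398 CPM in the T29-1 Cre libraries, against 4.15, 0.806, 1.34 and 0.7099 CPM in the WT libraries. WT replicate 1 was 2.97 times the mean of the other 7 libraries, and WT replicates 2 and 4 were below every T29-1 Cre library. Dnah10 had 0.717, 1.03, 0.866 and 1.35 CPM in the T29-1 Cre libraries, against 2.43, 0.927, 1.11 and 0.585 CPM in the WT libraries, with WT replicate 1 again above the rest. Dnah12, singled out after its values were seen, averaged 0.603 ± 0.247 CPM in T29-1 Cre and 0.4805 ± 0.437 CPM in WT (SD, n = 4 each). Dnah2 averaged 6.53 ± 0.811 CPM in T29-1 Cre and 6.100 ± 1.05 CPM in WT (SD, n = 4 each). The paralogs Dnah7a, Dnah7b and Dnah7c averaged 1.27, 4.06 and 0.843 CPM over the 8 libraries. Of their 150-base exon windows, 9.99%, 6.71% and 12.7% occur in another gene's transcripts, so reads can be shared between them.

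Radial spoke genes held both patterns. Rsph9, a spoke head protein whose loss in mice causes hydrocephalus, had 10.6, 9.84, 11.04 and 10.7 CPM in the T29-1 Cre libraries, against 9.98, 10.2, 11.2 and 13.6 CPM in the WT libraries. Rsph1, another spoke head protein, had 1.47, 2.32, 1.84 and 2.55 CPM in the T29-1 Cre libraries, against 3.81, 2.22, 1.83 and 1.796 CPM in the WT libraries. Rsph1 was highest in WT replicate 1, at 1.904 times the mean of the others, while Rsph9 there was 0.906 times it. Both overlapped between genotypes.

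The stalk genes Rsph3a and Rsph3b are near copies, with 39.6% and 43.3% of their 150-base windows shared, so their split is uncertain. Rsph3a had 10.3, 11.3, 11.1 and 11.7 CPM in the T29-1 Cre libraries, against 10.7, 12.7, 12.1 and 11.1 CPM in the WT libraries. Rsph3b had 8.19, 6.45, 7.97 and 7.38 CPM in the T29-1 Cre libraries, against 6.28, 8.14, 8.32 and 7.89 CPM in the WT libraries, with WT replicate 1 the lowest. Neither gene separated the genotypes. Rsph4a, a spoke head gene singled out after its values were seen, averaged 3.51 ± 0.364 CPM in T29-1 Cre and 3.68 ± 1.41 CPM in WT (SD, n = 4 each) and was 1.72 times the mean of the others in WT replicate 1.

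Rsph10b, encoding a radial spoke protein, was the member with the smallest p. It had 2.72, 2.79, 2.96 and 3.03 CPM in the T29-1 Cre libraries, against 1.94, 2.06, 2.28 and 2.05 CPM in the WT libraries. The genotypes did not overlap: all 4 T29-1 Cre libraries lay above all 4 WT libraries. The log2 fold change was 0.46 (SE 0.13), with an adjusted p of 0.998 (edgeR), so the gene did not pass. Its exons overlap those of Pms2, a mismatch repair gene on the same strand with a log2 fold change of 0.04 (SE 0.0725), and 5.68% of its windows occur in Gm42421. The part of either in the Rsph10b counts was not tested.

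Of the 4 tested central apparatus genes, 3 were lowest in WT replicate 4. Cfap69, known in mouse also from olfactory neurons, had 11.7, 10.8, 11.1 and 11.3 CPM in the T29-1 Cre libraries, against 11.1, 11.2, 10.5 and 8.06 CPM in the WT libraries. Cfap74 had 11.8, 13.8, 15.1 and 12.4 CPM in the T29-1 Cre libraries, against 13.2, 13.5, 12.6 and 11.9 CPM in the WT libraries. Both overlapped between genotypes. Cfap54, whose loss in mice causes hydrocephalus, had 4.87, 5.93, 4.76 and 7.04 CPM in the T29-1 Cre libraries, against 5.16, 4.796, 4.92 and 3.34 CPM in the WT libraries, with WT replicate 4 the lowest of the 8. Cfap46 averaged 2.89 ± 0.406 CPM in T29-1 Cre and 2.49 ± 0.551 CPM in WT (SD, n = 4 each). All 4 tested genes of this group had a positive log2 fold change and 0 passed the test, while Cfap74 had -0.0172 without T29-1 Cre replicate 3. Without WT replicate 4, Cfap69 had 0.0423 and Cfap54 0.186, against 0.14 and 0.30 with all 8 libraries.

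The genes that tether dynein arms and spokes to the doublets were all highest in WT replicate 1, 5 of 5, where 12.6% of all genes tested were. The margin was slight for some. Cfap70 had 1.421 CPM there and 1.418 CPM in T29-1 Cre replicate 2, and Cfap57 had 1.08 CPM there and 0.974 CPM in T29-1 Cre replicate 4. Cfap44, which in Tetrahymena and Chlamydomonas is part of the tether of an inner arm dynein, had 7.02, 5.54, 5.63 and 5.13 CPM in the T29-1 Cre libraries, against 7.78, 6.57, 6.099 and 3.88 CPM in the WT libraries. Its values overlapped between genotypes. Cfap43, its partner, averaged 2.395 ± 0.364 CPM in T29-1 Cre and 2.59 ± 1.11 CPM in WT (SD, n = 4 each) and was 1.78 times the mean of the others in WT replicate 1. Cfap57, Cfap61 and Cfap70 averaged 0.805, 1.37 and 1.12 CPM over the 8 libraries.

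Among doublet microtubule and other Cfap genes, the abundant ones were nearly even and several rare ones were not. Cfap36 had 78.4, 80.4, 81.8 and 82.7 CPM in the T29-1 Cre libraries, against 79.1, 83.9, 83.8 and 85.5 CPM in the WT libraries. Cfap97, related to the fly gene hemingway, had 34.7, 34.2, 32.1 and 36.8 CPM in the T29-1 Cre libraries, against 34.4, 32.8, 34.02 and 29.02 CPM in the WT libraries. Cfap20, an inner junction protein of the doublet, had 27.4, 25.2, 26.4 and 28.1 CPM in the T29-1 Cre libraries, against 25.9, 25.8, 26.7 and 28.1 CPM in the WT libraries. The genotypes overlapped for all 3, and the highest library was under 1.5 times the lowest. Cfap52, a protein inside the doublet, had 0.604, 0.816, 0.505 and 1.01 CPM in the T29-1 Cre libraries, against 0.935, 0.282, 0.424 and 0.292 CPM in the WT libraries, with T29-1 Cre replicate 4 and WT replicate 1 high. Cfap45 and Cfap58 averaged 3.55 and 0.668 CPM. Cfap126, singled out after its values were seen, had 0.377, 0.387, 0.685 and 0.525 CPM in the T29-1 Cre libraries, against 1.16, 0.403, 0.359 and 0.376 CPM in the WT libraries, with WT replicate 1 far above the rest of its group.

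Of the assembly factors, which fold and join dynein subunits in the cytoplasm, Dnaaf5 had 8.57, 9.07, 8.66 and 8.24 CPM in the T29-1 Cre libraries, against 8.82, 7.54, 9.23 and 8.06 CPM in the WT libraries. Dnaaf2 had 4.34, 5.11, 5.38 and 5.095 CPM in the T29-1 Cre libraries, against 5.72, 5.04, 5.35 and 5.64 CPM in the WT libraries, and 35.8% of its windows occur in other genes' transcripts, most often Gm49383. Both were nearly even and overlapped between genotypes. Dnaaf3 had 0.377, 0.516, 0.361 and 0.712 CPM in the T29-1 Cre libraries, against 1.196, 0.484, 0.7502 and 0.459 CPM in the WT libraries, with WT replicate 1 the highest.

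The remaining 11 rows had too few counts for the test. Over all 8 libraries Cfap221 had 29 counts, Rsph14 29, Rsph6a 26, Dnah17 34, Cfap53 56 and Dnaaf1 53. Dnah3, an inner arm chain, had 77, between 1 and 27 per library, the 3 Dnah14 rows had 12, 13 and 24, and Dnah2os had 19. Of the tested members, 3 reached 10 counts in every library of only 1 genotype. They were Cfap52 and Dnah11, which did so in T29-1 Cre, and Cfap58, which did so in WT.

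No member passed the comparison of T29-1 Cre with WT, which asks whether carrying the transgene changes these genes. With edgeR 0 of 37 were called at an adjusted p of 0.05, where 0.00625% of all genes tested were called. At an unadjusted p of 0.05 the count was 1, Rsph10b, against 2.43% of all genes, and DESeq2 and limma-voom gave 0 called and 1. Rsph10b was also the 1 member whose genotypes did not overlap, where 1.81% of all genes did not. The log2 fold change was positive for 18 members and negative for 19, where 50.3% of all genes were negative, with a median of -0.03 beside -0.00075 over all genes.

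Fold changes ran from -0.57 (SE 0.35) for Dnaaf3 on the log2 scale to 0.59 (SE 0.32) for Dnah8. The 95% interval lay within 1.5-fold either way for 19 members and within 2-fold for 28, so these libraries left larger differences unresolved for the rest. By role, the median log2 fold change was -0.01 for outer arm chains, 0.01 for inner arm chains, -0.07 for spokes, 0.18 for the central apparatus, -0.12 for anchoring genes and -0.13 for assembly factors. Without WT replicate 1 the median over members was 0.11, with 12 of 37 lower in T29-1 Cre.

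**Figure D2:**
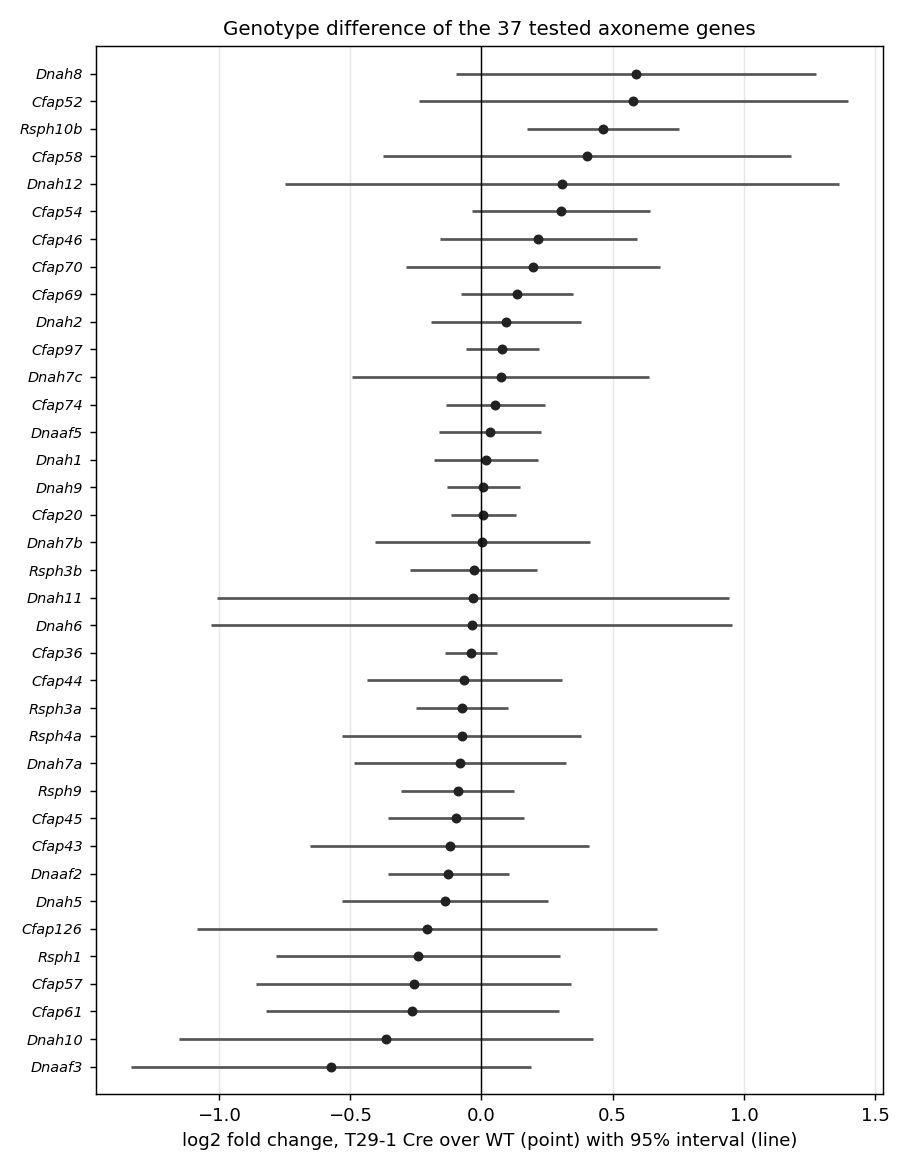
Log2 fold change of T29-1 Cre over WT for the 37 tested axoneme genes, with the point for the estimate and the line for its 95% interval. Rsph10b is the only gene whose interval lies off 0, and the widest intervals belong to Dnah6, Dnah11, Dnah12 and other genes that varied between libraries.

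Many members stood high or low in single libraries. WT replicate 1 was the highest of 8 libraries for 16 of 37 members (43.2%), where it was highest for 12.6% of all genes tested. WT replicate 4 was the lowest for 17 members (45.9%), where it was lowest for 27.2% of all genes. The median deviation from the 8-library mean, on the log2 CPM scale, was -0.04, 0.03, -0.01 and 0.09 in the T29-1 Cre libraries. In the WT libraries it was 0.19, -0.06, 0.04 and -0.30. With WT replicate 1 set aside, T29-1 Cre replicate 4 was the highest for 12 members, and for 7 of the 16 it came next after WT replicate 1.

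The rise in WT replicate 1 was far from even. It exceeded 1.5 times the mean of the other 7 libraries in 10 members (27.03%), where 2.06% of all genes tested did. Those were Dnah6 at 2.97, Dnah11 at 2.68, Cfap126 at 2.61, Dnah10 at 2.58, Dnah12 at 2.44, Dnaaf3 at 2.29, Rsph1 at 1.904, Cfap43 at 1.78, Rsph4a at 1.72 and Cfap52 at 1.66 times. The 2.06% is over genes of all levels, not matched to these 10, and several of the 10 had few counts. In WT replicate 1 Cfap52 had 25 counts, Dnah12 30, Cfap126 31, Dnaaf3 32 and Dnah11 47. Another 13 members lay between 0.9 and 1.1 times, Cfap36, Cfap20, Cfap97, Dnah9 and Dnah1 among them. Below 0.9 times were Cfap58 at 0.7602, Rsph10b at 0.761, Rsph3b at 0.809 and Dnah8 at 0.878 times. Across the 37 members, Spearman's rho between level in RPKM and this deviation was -0.51, a description over genes that share the same 8 libraries.

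**Figure D3:**
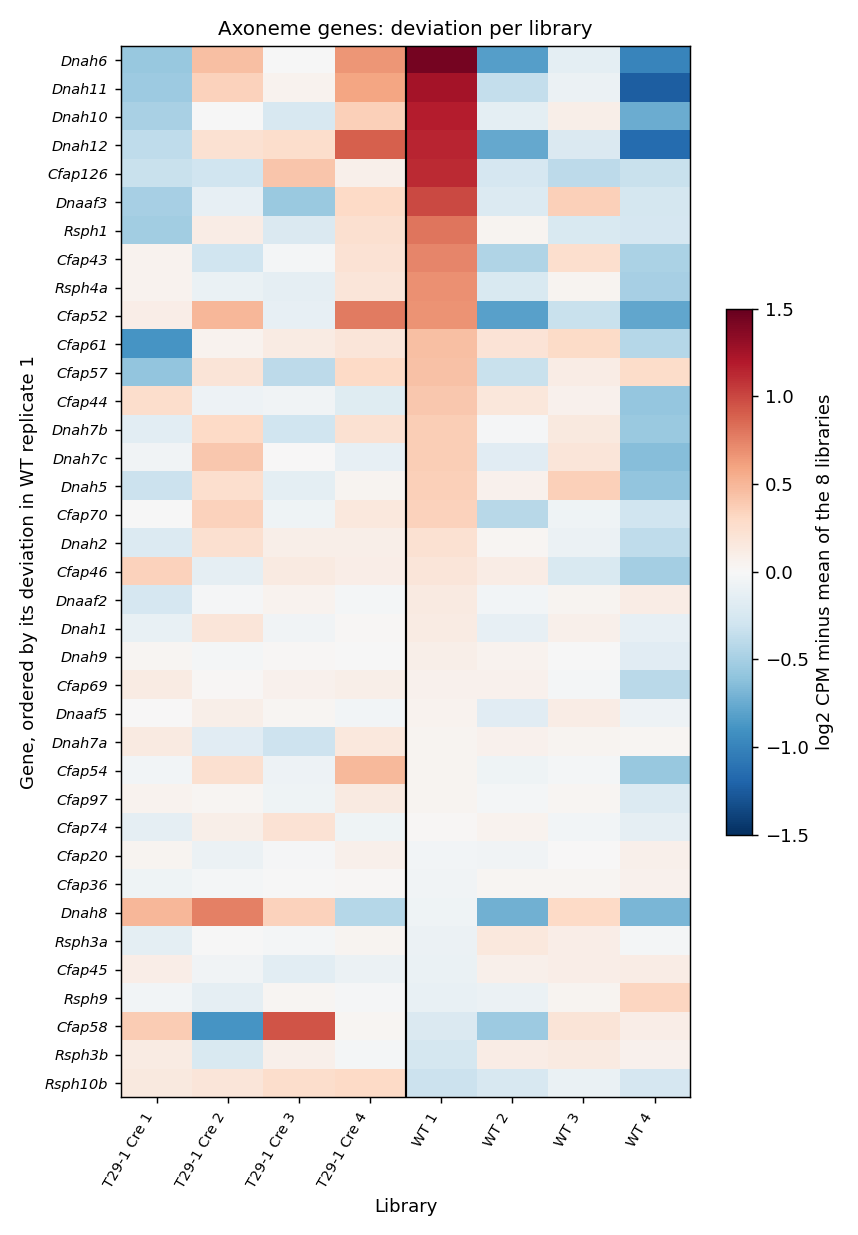
Deviation of each tested axoneme gene from its mean over the 8 libraries (log2 CPM, red above and blue below), with T29-1 Cre libraries left of WT libraries and genes ordered by WT replicate 1. The top rows are red in WT replicate 1 and blue in WT replicate 4, while Cfap36, Cfap20 and Cfap97 stay pale throughout.

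Members tended to vary together, with exceptions. Each member was correlated over the 8 libraries with the mean of the other members, as a description of values that share libraries. That mean was not scaled by spread, so the members that varied most weigh most in it. No value from gene sets of like length or level is set beside these correlations. The median Pearson r was 0.666 and the median Spearman rho 0.571, and r exceeded 0.7 for 16 members and was below 0 for 8. Heavy chains had a median r of 0.792 and the other members 0.521. Dnah11 at 0.98, Dnah6 at 0.96 and Dnah12 at 0.95 were the highest, and Cfap45 at -0.72, Rsph3b at -0.70 and Rsph9 at -0.68 the lowest.

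WT replicates 1 and 4 carried much of this. Without them, over 6 libraries, the median r was 0.441, r exceeded 0.7 for 8 members and was below 0 for 10. The medians were then 0.520 for heavy chains and 0.313 for the others. Dnah9 went to -0.82 and Cfap44 to -0.91 without those libraries, against 0.67 and 0.54 with all 8. The biological coefficient of variation exceeded 1.5 times its trend in 12 members (32.4%), where it did so in 4.64% of all genes. Most of the 12 were also over 1.5 times the mean of the others in WT replicate 1, so this share largely restates that rise. Values of that library were in view when the members were chosen, so the share gives no independent support.

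Several lists of other cilium genes and cell type markers also stood high in WT replicate 1, and their part in the members' pattern was not tested. The median deviation in WT replicate 1 was 0.48 for 11 further central apparatus genes and 0.39 for 6 dynein intermediate and light chains. It was 0.34 for 14 docking, nexin and ruler genes and 0.25 for 6 spoke-associated genes. For 9 preassembly factors outside the name rule it was 0.04. Ependymal markers had 0.34, with 9 of 20 highest there and a summed level of 112 to 125 CPM in T29-1 Cre and 109 to 146 CPM in WT libraries. The ependymal rise was in view when the members were chosen, so it gives no independent support. The ependymal list also shares genes with the cilium lists, Ak7, Nme5 and Zmynd10 among them. Another 9 listed ependymal markers had too few counts to test, Tmem212 with 94 over the 8 libraries the most and Mia with 5 the least. Foxj1 had 4.87, 5.59, 5.66 and 8.02 CPM in the T29-1 Cre libraries, against 9.496, 4.96, 4.57 and 5.596 CPM in the WT libraries, highest in WT replicate 1 and next in T29-1 Cre replicate 4. The ependymal marker Ccdc153 and the central apparatus gene Ak7, singled out after their values were seen, were 3.202 and 3.802 times the mean of the others in WT replicate 1.

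Some markers of other cell types also stood high there. Oligodendrocyte markers had a median deviation of 0.25, with 17 of 20 highest in WT replicate 1 and a summed level of 4026 to 4413 CPM in T29-1 Cre and 4119 to 4982 CPM in WT. Blood cell genes had 0.70, with 5 of 5 highest there and sums of 29.9 to 47.5 CPM in T29-1 Cre and 34.5 to 61.9 CPM in WT. Choroid plexus markers did not share the rise, at 0.05, over the 10 of 20 listed genes with enough counts to test. Folr1, Otx2, Aqp1 and Cldn2 were among those not tested. Astrocyte markers had 0.03, endothelial and mural markers 0.11 and meningeal fibroblast markers -0.06. Neocortical and subicular neuron markers had -0.05, striatal markers -0.04 and thalamic and habenular markers 0.04. Ttr, the choroid plexus transthyretin gene, had 3.89, 11.5, 26.8 and 2.81 CPM in the T29-1 Cre libraries, against 1.08, 1.45, 4.37 and 1.42 CPM in the WT libraries, with an adjusted p of 0.998 (edgeR). Ttr was called when no filter on low counts was used.

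In WT replicate 4, where the members' median was -0.30, the lists differed. The median was -0.47 for the further central apparatus genes, -0.27 for docking genes and -0.20 for spoke-associated genes. It was -0.05 for dynein intermediate and light chains, -0.07 for ependymal markers, -0.02 for oligodendrocyte markers, 0.07 for blood cell genes and 0.20 for the preassembly factors.

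The median deviation in WT replicate 1 was 0.01 for 34 intraflagellar transport and BBSome genes, which serve all cilia, and 0.0043 for 14 neuronal primary cilium genes. It was 0.03 for 13 multiciliated cell regulators, although Foxj1 among them was 1.69 times the mean of the others there. Rfx2 had 3.47, 3.57, 3.97 and 4.01 CPM in the T29-1 Cre libraries, against 3.59, 3.71, 3.13 and 3.51 CPM in the WT libraries, and Rfx3 averaged 94.99 ± 4.69 CPM in T29-1 Cre and 93.6 ± 13.03 CPM in WT (SD, n = 4 each). Hydin, a giant central apparatus protein whose loss causes hydrocephalus in mice, had 1.13, 1.76, 1.44 and 2.88 CPM in the T29-1 Cre libraries, against 2.36, 0.846, 1.63 and 1.04 CPM in the WT libraries, and WT replicate 1 was 1.53 times the mean of the others.

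**Figure D4:**
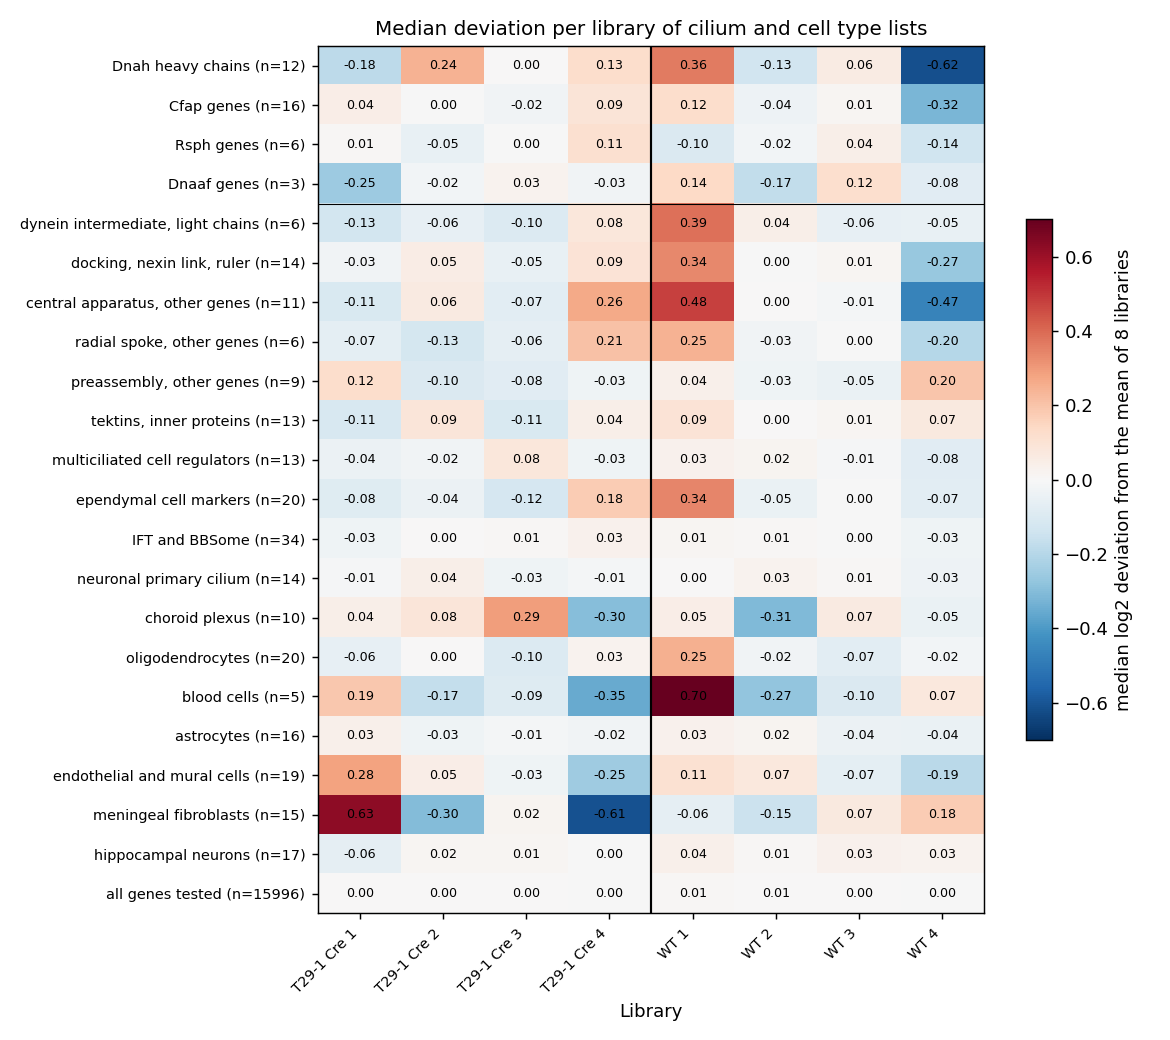
Median deviation (log2 CPM minus the mean of the 8 libraries) of the tested axoneme genes, of other cilium lists and of cell type marker lists in each library, T29-1 Cre libraries left of WT libraries. Central apparatus, ependymal, oligodendrocyte and blood lists are above 0 in WT replicate 1, at 0.48, 0.34, 0.25 and 0.70, and intraflagellar transport genes are near 0.

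Between genotypes, 0 genes of these lists passed in either direction with edgeR, DESeq2 or limma-voom. In the cilium lists 1 gene, Ak8, had an unadjusted p under 0.05 (edgeR), where 2.43% of all genes tested did. The medians were -0.04 for dynein intermediate and light chains, 0.01 for docking genes, -0.02 for the central apparatus, -0.05 for spoke-associated genes and -0.05 for other preassembly factors. Of the cell type lists, choroid plexus had 2 of 10 genes at an unadjusted p under 0.05 (edgeR). The blood, astrocyte, neocortical and striatal lists had 1 each, and no other cell type list had any. Lower in T29-1 Cre were 19 of 20 oligodendrocyte markers and 5 of 5 blood genes, where 50.3% of all genes were. Of these lists, 17 of 20 and 5 of 5 genes were highest in WT replicate 1. The oligodendrocyte median deviation was -0.06, 0.0015, -0.10 and 0.03 in the T29-1 Cre libraries, against 0.25, -0.02, -0.07 and -0.02 in the WT libraries. Genes of a list share the same 8 libraries, so such counts are not independent. Thalamic and habenular markers were higher in T29-1 Cre in 11 of 11, and the other cell type lists were more mixed. The following genes were among those with the smallest p in their cilium list, none past the threshold. On the log2 scale the T29-1 Cre over WT change was -0.53 (SE 0.21) for Ak8, 0.28 (SE 0.33) for Hydin, -0.07 (SE 0.05) for Dnal4, -0.25 (SE 0.20) for Dnaic1, -0.63 (SE 0.30) for Ttc25 and 0.29 (SE 0.24) for Drc7. Lrrc23 had -0.30 (SE 0.32) and Wdr66 0.11 (SE 0.13), Zmynd10 -0.29 (SE 0.16) and Ruvbl1 -0.10 (SE 0.07), and Tekt1 -0.37 (SE 0.25). Rfx2 had 0.11 (SE 0.12) and Tfdp1 -0.05 (SE 0.05), Ccdc113 -0.42 (SE 0.20), Dync2h1 0.16 (SE 0.08) and Ift57 -0.05 (SE 0.05), and Rpgrip1l 0.13 (SE 0.06) and Tulp3 -0.11 (SE 0.06).

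The fall in WT replicate 4 went with transcript length. Members with at least 10000 bases of exon (n = 14) had a median deviation of -0.58 there, and all 1410 genes of that length had -0.21. Members from 5000 to under 10000 bases (n = 7), all Cfap genes, had -0.40, while all 4821 genes of that length had -0.06. Members under 5000 bases (n = 16) had -0.05, and all 8895 such genes had 0.07. In WT replicate 1 the long members had 0.36 and all long genes 0.02, and the short members had 0.09. The long members are mostly dynein heavy chains, so length and role cannot be told apart among them.

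**Figure D5:**
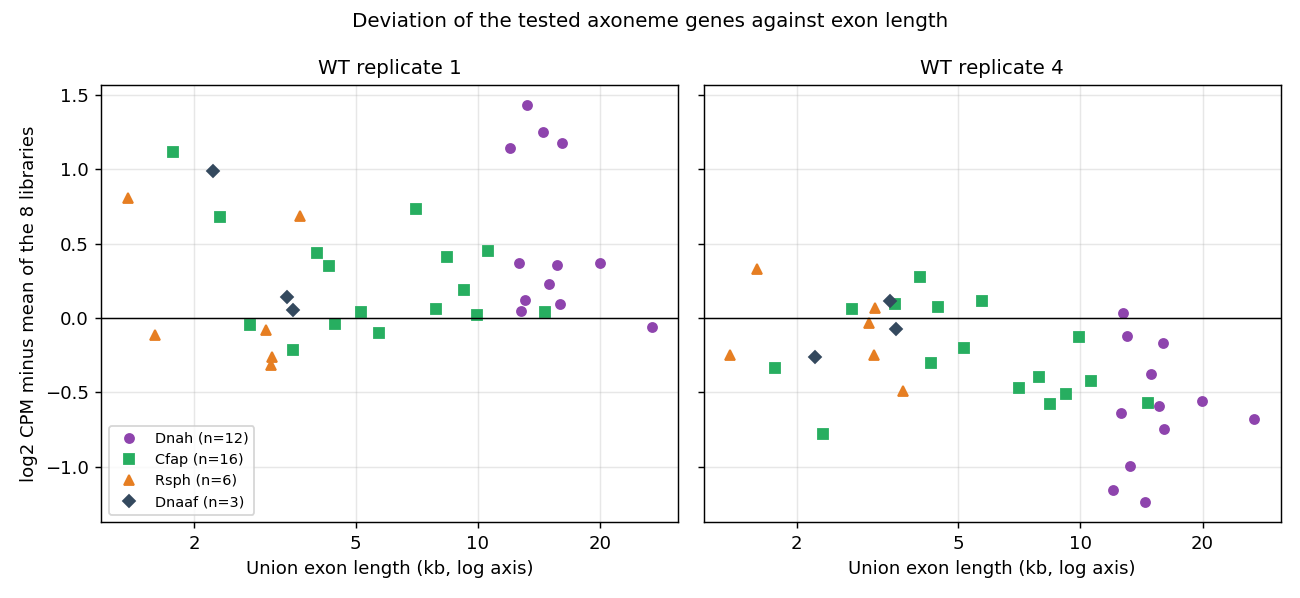
Deviation in WT replicate 1 and in WT replicate 4 (log2 CPM minus the mean of the 8 libraries) against union exon length in kilobases (log axis), 1 point per tested axoneme gene. Most long genes lie below 0 in WT replicate 4, with a median of -0.58 from 10000 bases up, while high values in WT replicate 1 occur among both short and long genes.

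Of 14119 other genes with a mean of at least 1 CPM, the 10 whose log2 CPM followed the members' mean standardised profile most closely over the 8 libraries were Gnao1, Ttc21a, Vwa5b1, Cyfip2, Gmcl1, Tbc1d32, A330017A19Rik, Gabbr2, Sel1l and Ubqln1. Their Pearson r lay between 0.95 and 0.98, and 0 of the 10 were in any of the lists. Size separated them: Gnao1 had 676, 709, 689 and 735 CPM in the T29-1 Cre libraries, against 762, 687, 713 and 648 CPM in the WT libraries, while Ttc21a had 0.642, 1.203, 1.01 and 1.57 CPM in the T29-1 Cre libraries, against 2.84, 0.443, 1.08 and 0.292 CPM in the WT libraries. WT replicate 1 was 3.19 times the mean of the others for Ttc21a and 1.098 times for Gnao1. The lists do not hold every cilium gene. Of the 30 closest genes 1 was listed, Tcte1 among the docking, nexin and ruler genes, with an r of 0.95. With 8 libraries and this many candidates, such values describe these libraries.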

How the data were processed

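Total RNA was purified with Isogen II and taken through poly(A) selection and a directional library (NEBNext Ultra II), sequenced paired-end at 150 bp, per the labels' protocols. Reads were aligned to GRCm38 with STAR 2.6.1d and assigned to genes with featureCounts, per the submitters' processing notes. The sources used here do not state the annotation release, the strand setting or how multimapped reads were treated. The deposited values are raw counts per gene, and a deposited table of the authors' own comparison was not used.

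Counts were filtered with filterByExpr defaults (minimum count 10), scaled by TMM and fitted with edgeR 4.0.16 (R 4.3.3) by quasi-likelihood with genotype alone, with Benjamini-Hochberg adjustment over 15996 genes and a threshold of 0.05. The procedure was run on simulated counts drawn at the trended dispersion, with changes only in genes with a mean of at least 1 CPM. Several members vary more than that trend or lie below that level, so the simulation does not give the power for them. CPM used TMM-scaled library sizes. Log2 CPM for deviations and correlations had a prior count of 2. RPKM used union exon lengths of GENCODE M21, and 150-base windows were compared between its transcripts. Alternatives were DESeq2 1.42.0, limma-voom 3.58.1, RLE and upper quartile scaling, no filter, a replicate block and leaving out each library.

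Members and gene lists were chosen with earlier results of these data known. Values per library are given for the 12 members highest in RPKM, the 5 with the smallest p, the 3 highest, lowest and most even in WT replicate 1 from 1 CPM up, the highest of each role, and genes said to be singled out after their values were seen. Of the 6 promoter motifs, 3 were added after member promoters had been read. One listed gene and the medians of its list are not reported here. No 2 libraries of the same genotype agreed within sampling noise.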

Additional observations from a re-analysis of the deposited data

Results flagged for a closer look

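The 37 tested members and their median deviation were screened within each genotype, 76 groups of 4 libraries, for a library whose gap to its nearest neighbour took up most of the group's range. Chance flags about 1 in 20 such groups, and 4 were found. Cfap61 was low in T29-1 Cre replicate 1, at -0.40 log2 CPM, with the other 3 libraries between 0.54 and 0.66. Cfap126 was high in WT replicate 1, at 0.30 log2 CPM, with the others between -1.20 and -1.06. Cfap45 was low in WT replicate 1, at 1.75 log2 CPM, with the others between 1.94 and 1.97. Cfap54 was low in WT replicate 4, at 1.77 log2 CPM, with the others between 2.28 and 2.39.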

How the results depend on the processing

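No member was called under any of the 14 alternatives, with a smallest adjusted p of 0.892 with no filter on low counts. The median log2 fold change of members lay between -0.0575 and 0.106 when single libraries were left out, the highest without WT replicate 1. Of the listed cilium and cell type genes, 1 was called with no filter and 1 with the replicate block, Ttr both times. This check of the lists was added after seeing the data. The log2 fold change of Dnah6, -0.04 as reported, was 0.25 with limma-voom and 0.13 with the replicate block, and the cause was not tested. Replicate numbers did not pair the libraries: same-numbered libraries correlated at -0.06, 0.08, 0.02 and -0.01, and the block changed no member's call. Leaving out single libraries turned the direction of 11 named members. Their log2 fold changes ranged between -0.282 and 0.823 for Dnah6, -0.585 and 0.156 for Dnah10, -0.3699 and 0.0687 for Rsph1, -0.221 and 0.0729 for Cfap44 and -0.144 and 0.01201 for Rsph9. They ranged between -0.114 and 0.0348 for Rsph3b, -0.0172 and 0.107 for Cfap74, -0.0426 and 0.0617 for Dnah1, -0.0414 and 0.0404 for Dnah9, -0.0151 and 0.0826 for Dnaaf5 and -0.0165 and 0.0346 for Cfap20. The 95% interval lay within 1.5-fold for 19 of the 37 tested members, so larger differences were not resolved for the rest.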
